A study of Mus musculus with 10 samples.

Results

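The nuclear genes for subunits of the mitochondrial respiratory chain were followed in mouse embryonic stem cells (ESCs) that lack DGCR8 or DDX6. Members were chosen by gene symbol, with no measured value: protein-coding genes named Nduf with a, b, c, s or v and a digit (complex I), Sdha to Sdhd (complex II), Cyc1 and Uqcr genes (complex III), Cox4 to Cox8 genes (complex IV) and Atp5 genes (complex V). Pseudogenes were left out, as were assembly factors named Ndufaf, Sdhaf or Uqcc. Atp5s, which RefSeq names Dmac2l, was kept by its symbol in complex V, and whether it is a subunit was not checked. This gave 85 members of the 51467 genes in the table, 21793 of which are protein-coding. Complex I held 37 of them, complex II 4, complex III 9, complex IV 18 and complex V 17. A gene was tested when at least 3 libraries held at least 3 CPM (counts scaled to library size), and 77 members passed among 11683 genes. The 8 untested members were Ndufa4l2, Ndufs5, Cox4i2, Cox6a2, Cox7b2, Cox8b, Cox8c and Atp5g2.

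The respiratory chain takes electrons from NADH at complex I and from succinate at complex II, passes them through ubiquinone to complex III and through cytochrome c to complex IV, and gives them to oxygen. Complexes I, III and IV pump protons across the inner membrane, and complex V, the ATP synthase, makes ATP as the protons flow back. Most subunits are made from nuclear genes and imported, while the remaining ones are encoded in mitochondrial DNA. Complex II alone is wholly nuclear.

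The 3 groups of ESC libraries compared were wild type (WT, 3 libraries), DGCR8 KO (3 libraries) and DDX6 KO (4 libraries, a pair from each of 2 clones). DGCR8 works with Drosha to cut primary miRNA transcripts, and canonical miRNAs are not made without it. DDX6 is an RNA helicase that ties miRNA-guided and general mRNA repression to decapping. The labels state that knockouts were made with CRISPR, and the study's methods describe the DDX6 KO clones as indel clones of the V6.5 line and the DGCR8 KO cells as a previously made knockout ESC line. Each knockout therefore stands for 1 line or 2 clones. All cells grew in Knockout DMEM with serum, LIF and the 2i inhibitors PD0325901 and CHIR99021. RNA was read with a 3′ tag method (QuantSeq), in which a transcript gives reads near its poly(A) tail, so a level does not scale with transcript length. Nothing in the labels says that libraries of a group came from separate cultures, so p-values measure the spread between these libraries, which may be technical.

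Library totals ran from 2131156 to 4745083 counts. Ddx6 read 502, 522 and 583 CPM in WT and 149, 134, 38.8 and 25.6 CPM in DDX6 KO, with clone 1 first, and Dgcr8 read 50.1, 51.9 and 65.4 CPM in WT and 10.1, 9.11 and 15.4 CPM in DGCR8 KO. Each targeted gene was lower in every library of its knockout. The summed CPM of 8 ESC markers was 3766 to 4269 in WT, 3317 to 3825 in DGCR8 KO and 3784 to 4297 in DDX6 KO. All 8 passed the filter, as did 1 of the 7 fibroblast, 1 of the 5 primitive endoderm and 2 of the 4 epiblast markers. The 5 primitive endoderm markers summed to 7.54 to 10.99, 3.24 to 4.73 and 16.4 to 23.7 CPM in the same order, the 7 fibroblast markers to 3.39 to 4.30, 2.43 to 3.38 and 5.25 to 9.47 CPM, and the 4 epiblast markers to 41.9 to 51.2, 45.0 to 60.1 and 14.5 to 18.6 CPM. Of the 8 ESC markers, 4 were lower and 1 higher in DGCR8 KO at an adjusted p under 0.05 (limma), with a median log2 fold change of -0.30. In DDX6 KO 1 was lower and 1 higher. Over all tested genes 16.5% were lower and 19.9% higher in DGCR8 KO, and 16.6% and 17.9% in DDX6 KO. Of the 4 epiblast markers, 1 (Fgf5) was at 0 in every library. The part of these lineage genes in the results was not tested. In bulk RNA, fewer cells of a type and less RNA per cell cannot be told apart.

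Respiratory chain transcripts were abundant in these ESCs. The mean level of tested members over all 10 libraries ran from 3.45 to 1875 CPM with a median of 167 CPM, against 29.8 CPM for all tested genes, and 27 of the 77 (35.1%) lay in the top 10% of tested genes. The most abundant was Atp5g3, which encodes the c subunit of the ATP synthase rotor, at 1875, 2246 and 2303 CPM in WT, 1541, 1706 and 1735 CPM in DGCR8 KO and 1923, 1950, 1679 and 1787 CPM in DDX6 KO. WT replicates 2 and 3 were the highest, and WT replicate 1 lay below both DDX6 KO clone 1 libraries. Within the other complexes the leading members were Ndufb8 (mean 457 CPM), Sdhc (258 CPM), Uqcrh (559 CPM) and Cox5a (877 CPM). Levels of some members may be uncertain, since only uniquely mapped reads were counted. For 15 of the 85 members, at least 25% of the 50-base words in the last 300 bases of the transcript also occur in another annotated gene. Among these were Cox5a (69.3%), Cox7c (65.2%), Ndufb6 (64.0%), Cox6c (34.9%, shared with Cox6c2), Ndufb2 (34.1%) and Uqcrc2, whose whole tail is shared with Pdzd9. Words were matched on either strand, and genes that overlap a member at its own locus were not set apart. Reads from such an overlap can still map uniquely, and Uqcrc2 averaged 167 CPM.

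Summed over all 85 members, the level was 18460, 19370 and 19630 CPM in WT, 16760, 17010 and 17710 CPM in DGCR8 KO and 15550, 16160, 14390 and 16110 CPM in DDX6 KO. With these CPM, which use TMM-scaled library totals, both knockouts lay below every WT library, and DDX6 KO lay below every DGCR8 KO library. Relative to the WT mean the sum was 0.896 in DGCR8 KO and 0.812 in DDX6 KO. By complex, DDX6 KO stood at 0.870 for complex I, 0.876 for II, 0.813 for III, 0.780 for IV and 0.781 for V. For complex II its libraries, at 753.9, 798.2, 664.2 and 699.6 CPM, overlapped WT. DGCR8 KO stood at 0.897, 1, 0.878, 0.901 and 0.886 in that order, and for complex II these libraries also overlapped WT, with 770.6, 853.7 and 870.3 CPM against 768, 931.3 and 796.4 CPM in WT. The order of the knockouts depended on the scaling. With total counts in place of TMM, DDX6 KO stood at 0.944 for complex I and 0.882 for III. These lay above DGCR8 KO, which reached at most 0.897 and 0.878 under the scalings tried. For complexes II, IV and V, DDX6 KO (0.95, 0.847 and 0.847) stayed below the lowest DGCR8 KO values (0.985, 0.888 and 0.873). The 13 subunit genes of mitochondrial DNA summed to 8914, 8895 and 8814 CPM in WT and to 6029, 5575, 5541 and 5656 CPM in DDX6 KO, a ratio of 0.642. In DGCR8 KO they summed to 9557, 13500 and 10880 CPM, a ratio of 1.27, each library above WT. Not all 13 genes were measured: 7 passed the filter and 2 were at 0 in every library. The 2 genes of complex V summed to 0 CPM in every WT and DGCR8 KO library. The 3 of complex IV summed to 1464, 1539 and 1487 CPM in WT, which are the values of mt-Co1 given below. Nuclear and mitochondrial sums thus fell together in DDX6 KO and lay on opposite sides of WT in DGCR8 KO, as values with no test.

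**Figure D1:**
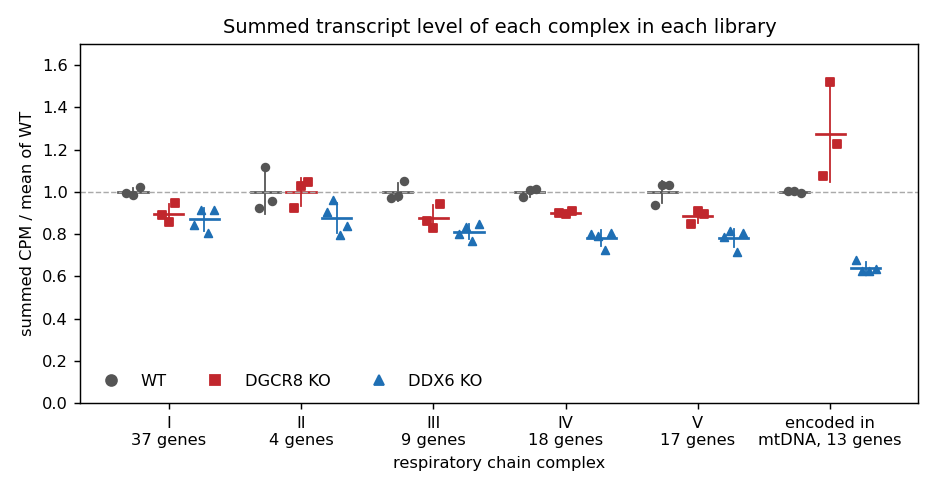
Summed CPM of the members of complexes I to V and of the 13 mitochondrially encoded subunit genes (7 of them tested), divided by the WT mean, for each library (points), with the group mean (bar) and SD (line). DDX6 KO libraries lie below 1 for every complex, down to a mean of 0.642 for the mitochondrially encoded genes, while the 3 DGCR8 KO libraries lie above 1 for the latter.

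In DGCR8 KO against WT, 21 of the 77 tested members were lower at an adjusted p under 0.05 (limma with voom weights, Benjamini-Hochberg over all 11683 genes), against 16.5% of all tested genes, and 4 were higher, against 19.9%. As shares of the 77, these were 27.3% and 5.19%. None passed the study's further limit of a log2 fold change beyond 1 in size, which 14.7% of all genes passed. Decreases ran from -0.33 to -0.98. The median log2 fold change of the members was -0.16, with -0.23, -0.15 and -0.16 in the 3 DGCR8 KO libraries, against 0.0043 for all tested genes and 0.024 for the 7315 tested genes in the abundance range of the members. The labels state no pairing, but WT and DGCR8 KO libraries with the same number in their titles deviated together. With the number as a block the counts were 28 lower and 6 higher. The other counts and adjusted p-values here come from the model without this block. The count fell from 25 to 16 (15 lower) without WT replicate 2 and to 16 (all lower) without DGCR8 KO replicate 1. Of the 25 calls, 14 held under all 19 settings tried, and all of these, listed for that outcome, were decreases: Ndufa2, Ndufa7, Ndufb7, Ndufb10, Ndufc1, Uqcrh, Uqcrq, Cox7a1, Cox7a2, Cox7b, Atp5g3, Atp5j2, Atp5k and Atp5mpl.

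In DDX6 KO against WT, 30 of the 77 members were lower, against 16.6% of all tested genes, and 3 were higher, against 17.9%. As shares of the 77, these were 39.0% and 3.90%. Cox7a1 alone passed the further limit of 1, which 11.2% of all genes passed. Decreases ran from -0.23 to -1.08. The median log2 fold change of the members was -0.26, with -0.29 and -0.22 in the clone 1 libraries and -0.36 and -0.15 in the clone 2 libraries, against 0.024 for all genes and -0.0027 for genes in that abundance range. Decreases reached every complex: 10 of 35 members of complex I, 2 of 4 of II, 4 of 9 of III, 7 of 13 of IV and 7 of 16 of V. Scaling to total counts in place of TMM moved the median of all genes to 0.15 and gave 18 members lower and 5 higher, while the members still lay 0.28 below all genes on the log2 scale, as with TMM. This scaling ended the calls of Ndufb8, Sdha, Uqcrh, Uqcrq, Cox6a1, Cox6b1 and Atp5g3 (adjusted p = 0.0605 to 0.296). The count fell from 33 to 19 (18 lower) without WT replicate 3, to 20 (19 lower) with clone 1 alone and to 18 (17 lower) with clone 2 alone. Of the 33 calls, 13 held under all 21 settings, again all decreases: Ndufa6, Ndufa7, Sdhb, Uqcr10, Cox6c, Cox7a1, Cox7a2, Cox8a, Atp5a1, Atp5b, Atp5c1, Atp5k and Atp5o. Both comparisons use the same 3 WT libraries.

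**Figure D2:**
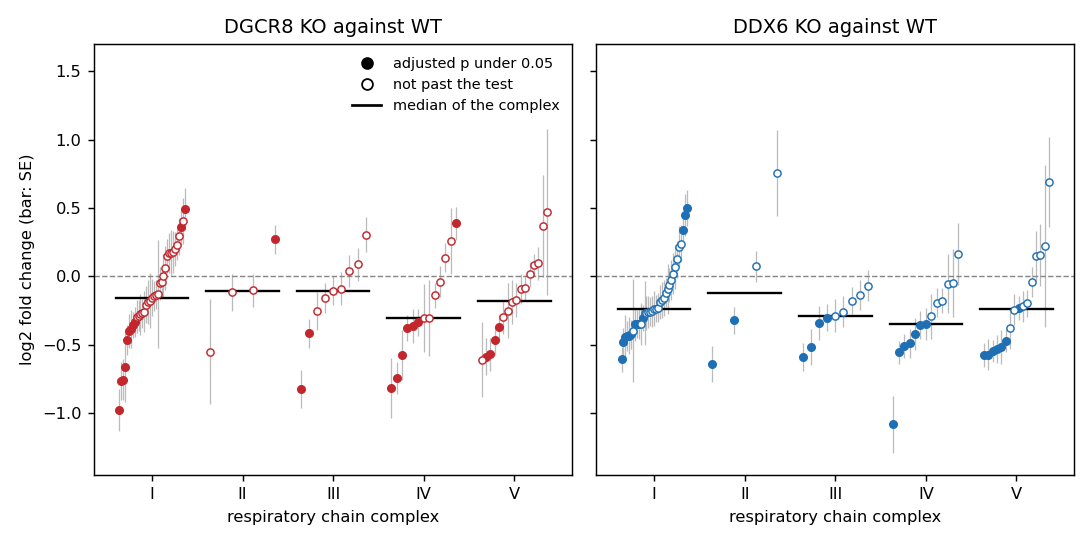
Log2 fold change (y axis, with SE) of each of the 77 tested members by complex (x axis), in DGCR8 KO against WT (left) and DDX6 KO against WT (right). Filled points passed an adjusted p under 0.05, and black lines are the medians of each complex, which lie below 0 for all 5 complexes in both comparisons.

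Complex I carries NADH oxidation, and the flavin and iron-sulfur centres sit in its catalytic core subunits, while accessory subunits surround the core and are needed for assembly. In DGCR8 KO 9 of its 35 tested members were lower and 2 higher. The largest decrease was in Ndufb7 (ENSMUSG00000033938, chromosome 8, 83566671 to 83571626, plus strand) (coordinates here and below are GRCm38), an accessory subunit, which read 115, 112 and 115 CPM in WT, 58.5, 47.9 and 69.3 CPM in DGCR8 KO and 92.9, 102, 88.2 and 125 CPM in DDX6 KO. DGCR8 KO lay below all other libraries, with a log2 fold change of -0.98 ± 0.15 (SE), adjusted p = 7.09e-05, whereas DDX6 KO overlapped WT (-0.16, adjusted p = 0.37). The accessory subunit Ndufc1 (ENSMUSG00000037152, chromosome 3, 51404677 to 51408988, minus strand) read 123, 132 and 122 CPM in WT, 80.4, 64.1 and 77.8 CPM in DGCR8 KO and 95.5, 126, 98.0 and 125 CPM in DDX6 KO. It was lower in DGCR8 KO (-0.77 ± 0.14 (SE), adjusted p = 0.000315) and overlapped WT in DDX6 KO (-0.18, adjusted p = 0.265).

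The largest decreases in DDX6 KO were in the accessory subunits Ndufa7 and Ndufa6. Ndufa7 (ENSMUSG00000041881, chromosome 17, 33824572 to 33838317, plus strand) read 300.4, 301 and 326 CPM in WT, 236, 243 and 249 CPM in DGCR8 KO and 192, 214, 197 and 212 CPM in DDX6 KO, so that the 3 groups did not overlap. Its log2 fold change was -0.60 ± 0.091 (SE), adjusted p = 6.57e-05 in DDX6 KO and -0.35 ± 0.10 (SE), adjusted p = 0.00747 in DGCR8 KO. Ndufa6 read 211, 220.3 and 218 CPM in WT, 167, 182 and 167 CPM in DGCR8 KO and 167, 161, 135 and 162 CPM in DDX6 KO, below WT in every knockout library (-0.48, adjusted p = 0.00135 in DDX6 KO and -0.33, adjusted p = 0.0203 in DGCR8 KO). The DGCR8 KO call of Ndufa6 ended without WT replicate 2 or 3 or DGCR8 KO replicate 1 or 3, at adjusted p = 0.0505 to 0.0649. Ndufb8, the most abundant member of complex I, read 553, 526 and 491 CPM in WT, 415, 398 and 491 CPM in DGCR8 KO and 403, 481, 404 and 405 CPM in DDX6 KO. It was lower in DDX6 KO (-0.30 ± 0.10 (SE), adjusted p = 0.0224), a call lost without WT replicate 1 or 2, either clone 2 library or the first clone 1 library (adjusted p = 0.0528 to 0.0825). In DGCR8 KO it overlapped WT (-0.27, adjusted p = 0.0529) and passed with the replicate block (-0.26, adjusted p = 0.0326).

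Increases in complex I were few. Ndufv1 (ENSMUSG00000037916, chromosome 19, 4007384 to 4012806, minus strand), the flavoprotein subunit that binds NADH, read 58.8, 64.0 and 88.5 CPM in WT, 115, 93.2 and 93.2 CPM in DGCR8 KO and 55.4, 52.9, 50.4 and 65.1 CPM in DDX6 KO. The DGCR8 KO libraries lay above all others (0.49 ± 0.15 (SE), adjusted p = 0.0176), while DDX6 KO overlapped WT (-0.35, adjusted p = 0.0899). Without WT replicate 1 or 2 or DGCR8 KO replicate 1 the call in DGCR8 KO ended, at adjusted p = 0.0735 to 0.105. Ndufa9 read 82.2, 82.0 and 91.2 CPM in WT, 126, 95.5 and 110.2 CPM in DGCR8 KO and 116, 101, 102 and 114 CPM in DDX6 KO, with each knockout above WT (0.36, adjusted p = 0.0328 in DGCR8 KO and 0.34, adjusted p = 0.0348 in DDX6 KO). Both Ndufa9 calls depended on single libraries: in DGCR8 KO on WT replicates 1 and 2 and DGCR8 KO replicates 1 and 3 (adjusted p up to 0.188), and in DDX6 KO on all 3 WT libraries, the first of clone 1 and the second of clone 2 (up to 0.101).

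Complex II is the succinate dehydrogenase of the citric acid cycle: Sdha holds the flavin, Sdhb the iron-sulfur clusters, and Sdhc and Sdhd anchor both in the membrane. Sdha (ENSMUSG00000021577, chromosome 13, 74322254 to 74350280, minus strand) read 222, 252 and 233 CPM in WT, 278, 259 and 323 CPM in DGCR8 KO and 195, 186, 181 and 192 CPM in DDX6 KO, with no overlap between any of the 3 groups. It was higher in DGCR8 KO (0.27 ± 0.10 (SE), adjusted p = 0.0494) and lower in DDX6 KO (-0.32 ± 0.10 (SE), adjusted p = 0.0192). Neither call was stable: that in DGCR8 KO ended without WT replicate 1 or 3 or DGCR8 KO replicate 1 or 3 (adjusted p = 0.0864 to 0.198) and under DESeq2 (0.0704), and that in DDX6 KO without WT replicate 2 or 3 or the first clone 2 library (0.0522 to 0.0838). Sdhb (ENSMUSG00000009863, chromosome 4, 140961203 to 140979193, plus strand) read 247, 302 and 294 CPM in WT, 239, 238 and 311 CPM in DGCR8 KO and 180.4, 223, 152 and 175 CPM in DDX6 KO. DDX6 KO lay below all WT and DGCR8 KO libraries (-0.64 ± 0.13 (SE), adjusted p = 0.000947), and DGCR8 KO overlapped WT (-0.11, adjusted p = 0.535).

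Sdhc, the most abundant member of complex II in the mean of all libraries, overlapped between all groups (256, 283 and 235 CPM in WT, 226, 276 and 219 CPM in DGCR8 KO and 299.5, 292, 245 and 249 CPM in DDX6 KO). Sdhd read 43.0, 94.9 and 34.8 CPM in WT, 28.3, 79.7 and 17.4 CPM in DGCR8 KO and 79.1, 97.2, 86.8 and 83.2 CPM in DDX6 KO. Its second WT and second DGCR8 KO library stood above the other WT and DGCR8 KO libraries, and its DDX6 KO libraries were close together. Sdhd passed neither test against WT (-0.55, adjusted p = 0.281 in DGCR8 KO and 0.76, adjusted p = 0.0701 in DDX6 KO). With the replicate block its DGCR8 KO difference passed (-0.56, adjusted p = 0.0418).

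Complex III moves electrons from ubiquinol to cytochrome c. Its small subunits carried the differences, and its catalytic nuclear subunits Cyc1 (cytochrome c1) and Uqcrfs1 (the Rieske iron-sulfur protein) passed neither test against WT. Uqcrq (ENSMUSG00000044894, chromosome 11, 53427922 to 53430831, minus strand) read 238, 262 and 269 CPM in WT, 137, 133 and 172 CPM in DGCR8 KO and 183, 222, 168 and 246 CPM in DDX6 KO. Its DGCR8 KO libraries lay below WT (-0.82 ± 0.14 (SE), adjusted p = 0.000162). In DDX6 KO it overlapped WT (-0.34, adjusted p = 0.0436), a call lost without WT replicate 2 or 3 or the first library of either clone (adjusted p = 0.102 to 0.154), and under edgeR, DESeq2 and limma-trend (0.0594, 0.057 and 0.0546). Uqcrh, the hinge protein that helps cytochrome c bind, read 641, 615 and 712 CPM in WT, 506, 429 and 554 CPM in DGCR8 KO and 496, 589.9, 526 and 526 CPM in DDX6 KO. It lay below WT in every knockout library, with -0.42, adjusted p = 0.00483 in DGCR8 KO and -0.30, adjusted p = 0.0236 in DDX6 KO, and the call in DDX6 KO ended without WT replicate 3 or the first library of either clone (0.054 to 0.145).

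The DDX6 KO decreases of complex III were led by Uqcr10 and Uqcr11, both small membrane subunits. Uqcr10 (ENSMUSG00000059534, chromosome 11, 4701973 to 4704342, minus strand) read 367, 364 and 440.2 CPM in WT, 357, 334 and 406 CPM in DGCR8 KO and 268, 254, 248 and 271 CPM in DDX6 KO, so DDX6 KO lay below all other libraries (-0.59 ± 0.10 (SE), adjusted p = 0.000244) and DGCR8 KO overlapped WT (-0.11, adjusted p = 0.464). Uqcr11 read 97.9, 88.5 and 124 CPM in WT, 87.4, 85.1 and 89.1 CPM in DGCR8 KO and 67.8, 82.7, 64.4 and 76.0 CPM in DDX6 KO. DDX6 KO lay below both other groups (-0.52 ± 0.13 (SE), adjusted p = 0.00554, and adjusted p = 0.0734 without WT replicate 3), and DGCR8 KO overlapped WT (-0.25, adjusted p = 0.169).

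Complex IV, cytochrome c oxidase, has its catalytic subunits in mitochondrial DNA, and its nuclear subunits surround and regulate them. It had the lowest median log2 fold change of the 5 complexes in both knockouts, -0.30 in DGCR8 KO (6 of 13 lower, 1 higher) and -0.35 in DDX6 KO (7 of 13 lower). Cox7b (ENSMUSG00000031231, chromosome X, 106015700 to 106022450, plus strand) read 276, 302 and 244 CPM in WT, 149, 177 and 163 CPM in DGCR8 KO and 235, 246, 214 and 258 CPM in DDX6 KO. DGCR8 KO lay below all other libraries (-0.74 ± 0.12 (SE), adjusted p = 7.11e-05), and DDX6 KO overlapped WT (-0.19, adjusted p = 0.169). Cox6c (ENSMUSG00000014313, chromosome 15, 35925886 to 35938246, minus strand) showed the other pattern, with 690.2, 747 and 749 CPM in WT, 671, 660.3 and 657 CPM in DGCR8 KO and 522, 522, 447 and 501 CPM in DDX6 KO. DDX6 KO lay below all other libraries (-0.55 ± 0.084 (SE), adjusted p = 7.52e-05), whereas DGCR8 KO, although below each WT library, did not pass (-0.14, adjusted p = 0.238). Cox5a read 928, 1083 and 939 CPM in WT, 739.5, 903 and 702 CPM in DGCR8 KO and 893, 878, 855 and 848 CPM in DDX6 KO, lower in DGCR8 KO (-0.34, adjusted p = 0.0128, lost without WT replicate 2 or DGCR8 KO replicate 1 or 3 at adjusted p = 0.0544 to 0.0759) and not past the test in DDX6 KO (-0.18, adjusted p = 0.146).

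Isoform pairs of complex IV and of its neighbours allow the tissue form to be read. In each pair the form known from most tissues led. The muscle, testis or hypoxia form did not pass the filter, except Cox6b2 and Cox7a1, which averaged 19.9 and 32.6 CPM in WT. Cox4i1, the general form of the largest nuclear subunit, read 275, 293 and 315 CPM in WT, 232, 209 and 250 CPM in DGCR8 KO and 224, 209, 184 and 270 CPM in DDX6 KO, and Cox4i2, the form known from lung and hypoxia, read 1.91, 0 and 0.444 CPM in WT, 0, 0 and 0 CPM in DGCR8 KO and 0, 0.346, 0.350 and 0.278 CPM in DDX6 KO. The muscle forms Cox6a2 and Cox8b were at 0 in all 10 libraries, where 3 counts would be 0.632 to 1.41 CPM of the unscaled library total, while Cox6a1 averaged 266 CPM and Cox8a 334 CPM. Cox7b2, a testis form, and Cox8c were at most 0.914 and 2.00 CPM in any library. The testis form Cox6b2 averaged 21.0 CPM against 503 CPM for Cox6b1, and passed no test (0.26, adjusted p = 0.43 in DGCR8 KO and 0.16, adjusted p = 0.603 in DDX6 KO). Ndufa4l2, a hypoxia-induced relative of Ndufa4, had at most 8 counts in a WT library (22 in all), 3 in a DGCR8 KO library (5 in all) and 3 in a DDX6 KO library (7 in all). Intervals and floors here cover counting error only.

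Cox7a1, the heart and muscle form of subunit 7a, was present in WT and had the largest decrease of all members in DDX6 KO. Cox7a1 (ENSMUSG00000074218, chromosome 7, 30184144 to 30186078, plus strand) read 33.0, 40.7 and 24.2 CPM in WT, 15.8, 19.9 and 17.0 CPM in DGCR8 KO and 18.6, 12.5, 14.3 and 13.6 CPM in DDX6 KO. All knockout libraries lay below all WT libraries, with a log2 fold change of -1.08 ± 0.21 (SE), adjusted p = 0.000711 in DDX6 KO and -0.81 ± 0.22 (SE), adjusted p = 0.00743 in DGCR8 KO. The general form Cox7a2 read 409.8, 394 and 380.1 CPM in WT, 312, 306 and 288 CPM in DGCR8 KO and 295, 267, 257 and 288 CPM in DDX6 KO and also lay below WT in every knockout library (-0.51, adjusted p = 0.000291 in DDX6 KO and -0.38, adjusted p = 0.00431 in DGCR8 KO). Cox7a2l, which acts in supercomplex assembly, was lower in DGCR8 KO (-0.58, adjusted p = 0.0192, lost without WT replicate 1 or DGCR8 KO replicate 1 at adjusted p = 0.0562 to 0.0711) and did not pass in DDX6 KO (-0.29, adjusted p = 0.175).

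Cox6b1, Cox6a1 and Cox8a were lower in DDX6 KO, and none of them was lower in DGCR8 KO. Cox6b1 (ENSMUSG00000036751, chromosome 7, 30616861 to 30626151, minus strand), which contacts cytochrome c at the outer face, read 492, 428 and 574 CPM in WT, 672, 564 and 733 CPM in DGCR8 KO and 398, 413, 342 and 415 CPM in DDX6 KO. It was higher in DGCR8 KO, where 1 library overlapped WT (0.39 ± 0.12 (SE), adjusted p = 0.0161), and lower in DDX6 KO (-0.35 ± 0.12 (SE), adjusted p = 0.0267). The first call ended without WT replicate 2 or DGCR8 KO replicate 1 or 3 (adjusted p = 0.059 to 0.0986) and the second without WT replicate 1 or 3 or the first clone 2 library (0.0558 to 0.205). Cox6a1 read 266, 277 and 299 CPM in WT, 310.4, 286 and 337 CPM in DGCR8 KO and 225, 232, 196 and 229 CPM in DDX6 KO and was lower in DDX6 KO (-0.35, adjusted p = 0.00995, and 0.0674 without WT replicate 3). Cox8a read 371, 339 and 428 CPM in WT, 388, 322 and 406 CPM in DGCR8 KO and 276, 274, 266 and 266 CPM in DDX6 KO, and all DDX6 KO libraries lay below all others (-0.49, adjusted p = 0.00149).

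**Figure D3:**
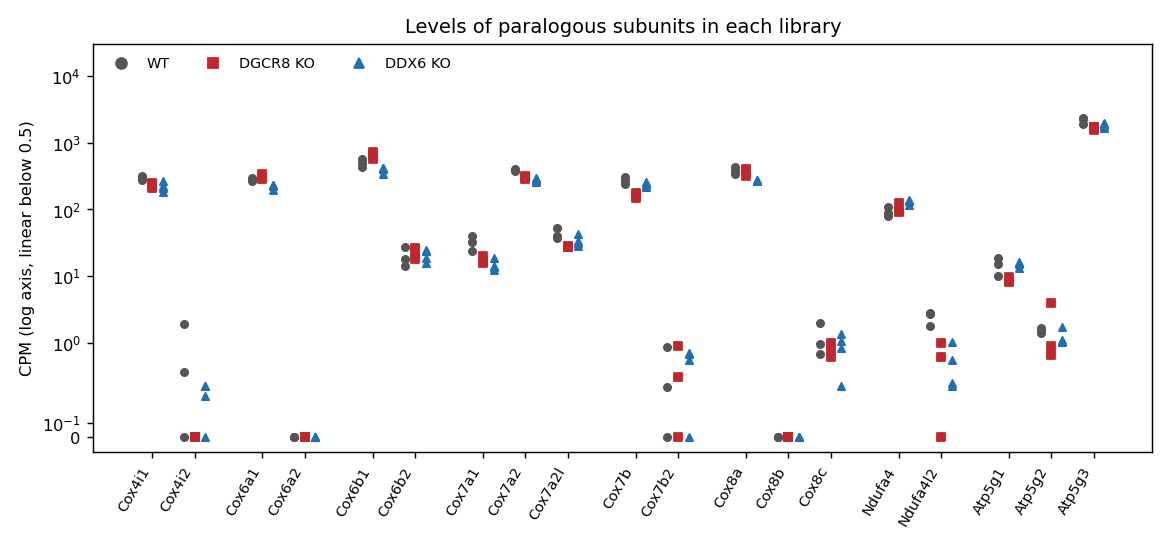
CPM of paralogous subunits in each library (points), on a log axis that is linear below 0.5 CPM. General forms such as Cox4i1, Cox6a1 and Cox8a averaged 246, 266 and 334 CPM, whereas Cox6a2 and Cox8b are at 0 in all 10 libraries and Cox7a1 falls from the 3 WT libraries to both knockouts.

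Complex V is a rotary enzyme whose F1 head (Atp5a1, Atp5b, Atp5c1, Atp5d and Atp5e) makes ATP, a peripheral stalk (Atp5f1, Atp5h, Atp5j and Atp5o) holds the head, and membrane subunits carry the proton flow. These role groups were formed after values were seen. The 5 head genes summed to 2974, 3142 and 3077 CPM in WT, 3048, 3242 and 3033 CPM in DGCR8 KO and 2196, 2266, 2068 and 2305 CPM in DDX6 KO. WT and DGCR8 KO overlapped, none of the 5 passed the test in DGCR8 KO, and DDX6 KO lay below all other libraries, with 3 of 5 lower. Atp5c1 (ENSMUSG00000025781, chromosome 2, 10056016 to 10080510, minus strand), the central shaft, read 321, 364 and 328 CPM in WT, 315, 323 and 317 CPM in DGCR8 KO and 232, 233, 209 and 233 CPM in DDX6 KO. Its log2 fold change was -0.57 ± 0.091 (SE), adjusted p = 0.000112 in DDX6 KO and -0.086 in DGCR8 KO (95% interval -0.29 to 0.11). Atp5b, the catalytic beta subunit, named after its values were seen, read 1065, 1066 and 1047 CPM in WT, 1130, 1148 and 1089 CPM in DGCR8 KO and 726, 718, 669 and 790.1 CPM in DDX6 KO (-0.54, adjusted p = 4.93e-05 in DDX6 KO). In DGCR8 KO its difference was 0.085 (95% interval -0.089 to 0.26).

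The small membrane subunits Atp5j2, Atp5k, Atp5l and Atp5mpl summed to 781, 833 and 901 CPM in WT, 536, 552 and 660 CPM in DGCR8 KO and 585, 653, 568 and 665 CPM in DDX6 KO, so that both knockouts lay below WT. Atp5k (ENSMUSG00000050856, chromosome 5, 108433244 to 108434448, minus strand), subunit e at the dimer interface, read 394, 411 and 462 CPM in WT, 261, 267 and 338 CPM in DGCR8 KO and 282, 329, 252 and 284 CPM in DDX6 KO. Its log2 fold change was -0.57 ± 0.12 (SE), adjusted p = 0.00103 in DGCR8 KO and -0.57 ± 0.11 (SE), adjusted p = 0.00068 in DDX6 KO. Atp5j2 (subunit f) read 182, 196 and 203 CPM in WT, 116, 126 and 149.5 CPM in DGCR8 KO and 113, 139, 128 and 166 CPM in DDX6 KO, also with both knockouts below WT (-0.59, adjusted p = 0.00218 and -0.52, adjusted p = 0.00369). Of the 3 c-subunit genes, which encode the same mature protein, Atp5g3 gave nearly all of the uniquely mapped reads. In the last 300 bases of the transcript, 60.9% of the 50-base words of Atp5g2 and 36.0% of those of Atp5g1 also occur in other genes. None of those of Atp5g3 do, so the levels of the 3 genes may not be equally well measured. Atp5g3 was lower in DGCR8 KO (-0.37, adjusted p = 0.0041) and in DDX6 KO (-0.23, adjusted p = 0.0467). The DDX6 KO call of Atp5g3 ended without WT replicate 2 or 3, either clone 2 library or the first of clone 1 (adjusted p = 0.0506 to 0.235), and under edgeR, DESeq2 and limma-trend (0.0731, 0.0633 and 0.0856). Atp5g1 read 15.3, 19.0 and 9.98 CPM in WT, 8.22, 9.79 and 8.51 CPM in DGCR8 KO and 15.3, 13.5, 16.1 and 15.6 CPM in DDX6 KO and did not pass in DGCR8 KO (-0.61, adjusted p = 0.0946), where the replicate block gave -0.73 with adjusted p = 0.0229.

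**Figure D4:**
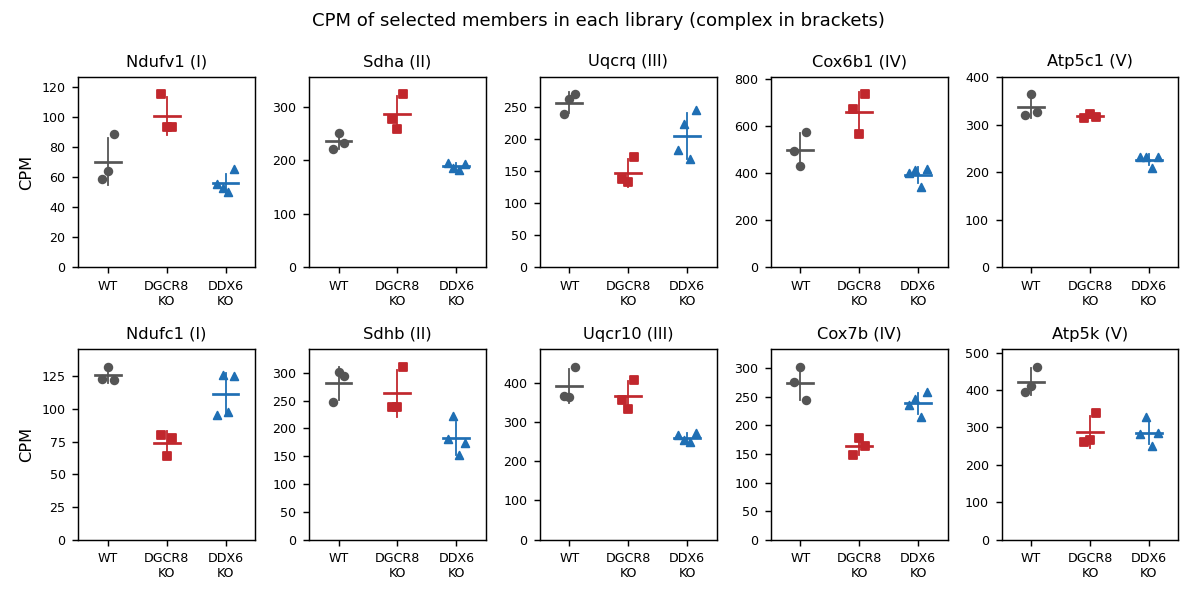
CPM of 10 members in each library (points), with the group mean (bar) and SD (line), each panel starting at 0. Ndufc1 and Cox7b are lowest in the 3 DGCR8 KO libraries, Sdhb, Uqcr10 and Atp5c1 are lowest in the 4 DDX6 KO libraries, and Atp5k lies below WT in both.

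The knockouts were then set against each other, a comparison that uses no WT library. Of the 77 members, 23 were higher in DGCR8 KO than in DDX6 KO, against 23.0% of all tested genes, and 11 were lower, against 21.0%, which is 29.9% and 14.3% of the members. Sdhd alone was beyond a log2 difference of 1, as were 17.1% of all genes. The median log2 difference was 0.058, against 0.0019 for all genes. With scaling to total counts the split became 16 higher and 20 lower and the median -0.070, as the median of all genes moved to -0.13. With clone 2 alone 21 members passed, 16 higher and 5 lower.

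Several members of the catalytic cores were higher in DGCR8 KO than in DDX6 KO. Ndufv1 differed by 0.84 ± 0.15 (SE), adjusted p = 0.000176, Sdha by 0.59 ± 0.10 (SE), adjusted p = 0.000107 and Sdhb by 0.52 ± 0.13 (SE), adjusted p = 0.00323, each with no overlap between the knockouts' libraries. In the F1 head 4 of 5 genes were higher, a count within a group formed after values were seen. Atp5c1 differed by 0.49, adjusted p = 0.000308. Among smaller subunits, Cox6b1 differed by 0.74, adjusted p = 4.66e-05, Cox6a1 by 0.49, adjusted p = 0.000569, Uqcr10 by 0.48, adjusted p = 0.000861, Cox8a by 0.45, adjusted p = 0.00193 and Cox6c by 0.42, adjusted p = 0.00068.

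Accessory subunits went both ways. Of the 28 tested accessory subunits of complex I, counted by symbol and with Ndufa4 among them, 5 were higher and 6 lower in DGCR8 KO than in DDX6 KO. Their median was -0.027, and whether core and accessory subunits differ was not tested. Among the members that were lower, Ndufb7 differed by -0.82 ± 0.15 (SE), adjusted p = 0.000191, Ndufc1 by -0.58 ± 0.13 (SE), adjusted p = 0.00173 and Cox7b by -0.55 ± 0.11 (SE), adjusted p = 0.000548, each with no overlap. With each library centred on the median of each chromosome, the Ndufb7 difference was -0.35 and no longer passed (adjusted p = 0.0567), while centred on deviations from the gene means it was -0.40 and passed. Uqcrq differed by -0.48, adjusted p = 0.00705, with libraries that overlapped. Sdhd differed by -1.30 ± 0.35 (SE), adjusted p = 0.00535, with overlapping libraries, and did not pass under DESeq2 (adjusted p = 0.103). Of members lower in both knockouts, Ndufa7 differed by 0.25, adjusted p = 0.0348, with no overlap, a call lost without any 1 of the DGCR8 KO libraries or the first library of either clone (adjusted p = 0.0612 to 0.0881) and with scaling to total counts (0.12, adjusted p = 0.274). The direct difference did not pass the test for other members lower in both: Atp5k differed by 0.0013 (95% interval -0.24 to 0.24), Atp5j2 by -0.069 (95% interval -0.34 to 0.20) and Cox7a1 by 0.27 (95% interval -0.23 to 0.77).

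The 77 tested members lie on 19 chromosomes, and 2 of these stood apart as wholes. The 561 tested genes of chromosome 6 had a median log2 fold change of 0.59 in DDX6 KO (0.53 to 0.68 by library), and the 644 of chromosome 8 had a median of -0.45 in DGCR8 KO (-0.40 to -0.52). The 3 members that were higher in DDX6 KO, all placed in complex I by their symbols (Ndufa4 has also been assigned to complex IV), are all on chromosome 6. Ndufa4 read 79.3, 108 and 87.6 CPM in WT, 91.7, 126 and 93.6 CPM in DGCR8 KO and 137, 133, 115 and 133 CPM in DDX6 KO (0.50, adjusted p = 0.00754), Ndufa9 was described above and Ndufb2 read 36.3, 31.9 and 35.5 CPM in WT, 37.5, 36.8 and 43.0 CPM in DGCR8 KO and 38.3, 51.2, 43.7 and 55.7 CPM in DDX6 KO (0.45, adjusted p = 0.0305). Each DDX6 KO library lay above WT for these 3 genes. The Ndufb2 call ended without WT replicate 2 or 3 or the second library of either clone (adjusted p = 0.0722 to 0.0992), and the levels of Ndufa4 kept their call without any single library. Ndufa5, the fourth member there, did not pass (0.24, adjusted p = 0.184). After each library was centred on the median deviation of its chromosome, an alternative added after the data were seen, the values turned to -0.089 for Ndufa4, -0.25 for Ndufa9 and -0.14 for Ndufb2, with adjusted p = 0.629, 0.13 and 0.53.

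On chromosome 8 lie Cox4i1, Ndufa13 and Ndufb7. Ndufb7 moved from -0.98 to -0.53 (adjusted p = 0.0089) in DGCR8 KO against WT after the same centring and kept its call. In DGCR8 KO Cox4i1 was lower (-0.36, adjusted p = 0.0301) and turned to 0.091 (adjusted p = 0.595) after centring by chromosome. It also ended as a call without WT replicate 2 or 3 or DGCR8 KO replicate 1 or 2 (0.0608 to 0.119). In DDX6 KO, where chromosome 8 had a median of -0.032, Cox4i1 was lower at -0.42, adjusted p = 0.00978, and at 0.0624 without WT replicate 3. The 70 tested members off both chromosomes had medians of -0.17 in DGCR8 KO (3 higher, 19 lower) and -0.26 in DDX6 KO (0 higher, 29 lower). The part of the chromosome-wide shifts in the values of single members was not tested beyond this centring.

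**Figure D5:**
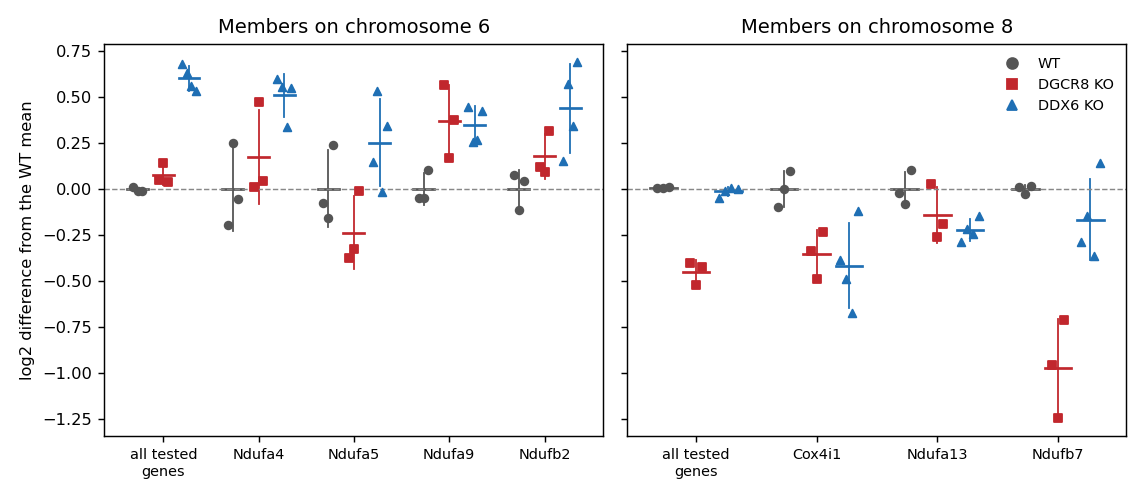
Log2 difference from the WT mean in each library (points, with mean and SD) for all tested genes of chromosome 6 or 8 (median of the chromosome) and for the members on it. The DDX6 KO libraries have chromosome 6 medians of 0.53 to 0.68, with Ndufa4, Ndufa9 and Ndufb2 also above 0, and the DGCR8 KO libraries have chromosome 8 medians of -0.40 to -0.52.

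Members shared sequence features that the choice by symbol did not use. For each gene the 3′ UTR was taken from the transcript with the longest coding sequence. Those of members were short, with a median of 159 bases against 1000 for the 10846 tested coding genes with a 3′ UTR. A match to the seed site of the main ESC miRNA family (AGCACTT or GCACTTA, sense strand) was present in 5 of 77 members (6.5%) and in 2098 of those 10846 genes (19.3%). Without the replicate block none of the 5 passed the test in DGCR8 KO, which cannot make canonical miRNAs. Among them were Sdhd and Atp5g1, with log2 fold changes of -0.55 and -0.61, and with the replicate block both passed as lower (-0.56, adjusted p = 0.0418 and -0.73, adjusted p = 0.0229).

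Many genes for respiratory subunits are known to be driven by the factors NRF1, GABP (an ETS factor) and YY1, and promoter windows of 250 bases before to 50 after the start were searched for GCGCATGCG (NRF1), CCGGAAG (GABP and ETS) and AAGATGG (YY1) on both strands. Windows came from RefSeq on GRCm38.p6 and matched 64 of the 77 tested members and 8861 of 10985 tested coding genes. The NRF1 letters were in 7 members (10.9%) and 4.4% of tested coding genes, the GABP and ETS letters in 16 (25%) and 21.4%, and the YY1 letters in 11 (17.2%) and 8.8%. Of all 32851 windows in the RefSeq table, 1.75%, 8.86% and 6.34% held them. Among the 29 tested members with any of the motifs 11 were lower in DDX6 KO and 6 in DGCR8 KO, and among the 35 with none 13 and 11.

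The windows of 4 members held both the NRF1 and the GABP and ETS letters. Of these, Atp5k, Cox6a1 and Uqcr11 were lower in DDX6 KO, and Atp5k was also lower in DGCR8 KO, while Atp5l did not pass either test. The 3 windows are shown to place the motifs against the start, which is 50 bases before the right end. They run 5′ to 3′ on the minus strand (GRCm38.p6, RefSeq), at chr5:108434350-108434649, chr5:115348909-115349208 and chr10:80406772-80407071, and capitals mark the motifs.
Atp5k: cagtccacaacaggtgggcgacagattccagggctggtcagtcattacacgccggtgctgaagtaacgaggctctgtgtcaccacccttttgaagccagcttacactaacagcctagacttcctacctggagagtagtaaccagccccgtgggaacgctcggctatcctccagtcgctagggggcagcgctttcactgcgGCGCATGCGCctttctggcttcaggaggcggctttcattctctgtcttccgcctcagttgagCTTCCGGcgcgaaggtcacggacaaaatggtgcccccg
Cox6a1: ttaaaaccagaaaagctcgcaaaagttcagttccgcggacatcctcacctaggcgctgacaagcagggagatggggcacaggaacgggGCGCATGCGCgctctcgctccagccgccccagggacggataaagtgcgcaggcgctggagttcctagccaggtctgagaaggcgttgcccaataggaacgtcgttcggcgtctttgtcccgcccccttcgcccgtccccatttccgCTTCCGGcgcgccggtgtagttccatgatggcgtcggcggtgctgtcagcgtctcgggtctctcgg
Uqcr11: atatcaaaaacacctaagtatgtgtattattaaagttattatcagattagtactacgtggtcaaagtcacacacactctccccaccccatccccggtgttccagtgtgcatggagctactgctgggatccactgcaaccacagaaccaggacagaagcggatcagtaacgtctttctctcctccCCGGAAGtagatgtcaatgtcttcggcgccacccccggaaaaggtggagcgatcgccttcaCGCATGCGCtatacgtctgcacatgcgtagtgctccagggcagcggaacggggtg
A match describes letters and is not a site or a cause.

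Genes that work with the chain were read beside it. Of the 13 mitochondrially encoded subunit genes 7 were tested, and all 7 were lower in DDX6 KO (median -0.63) while 4 were higher in DGCR8 KO (median 0.26). For example, mt-Co1, the catalytic subunit of complex IV, read 1464, 1539 and 1487 CPM in WT, 1698, 2624 and 1967 CPM in DGCR8 KO and 1136, 941, 902 and 901 CPM in DDX6 KO, with log2 fold changes of 0.46, adjusted p = 0.00675 and -0.63, adjusted p = 0.000563. Of 44 tested assembly factors, DGCR8 KO had 1 higher and 7 lower (median -0.24) and DDX6 KO 4 higher and 3 lower (median -0.11). Among all tested genes 19.9% were higher and 16.5% lower in DGCR8 KO, and 17.9% and 16.6% in DDX6 KO. Uqcc3, an assembly factor of complex III, was lower in both (-0.73, adjusted p = 0.00223 and -0.82, adjusted p = 0.000625). The complex IV assembly factors Coa6 and Cox20 moved apart, with -1.04, adjusted p = 0.0318 and -0.996, adjusted p = 0.00445 in DGCR8 KO and 0.92, adjusted p = 0.00793 and 0.77, adjusted p = 0.00387 in DDX6 KO. These are single genes from a list of 44 whose calls did not exceed the all-gene shares in either knockout. Assembly factors were not followed through the centring by chromosome.

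Of 17 tested genes for mitochondrial DNA expression and its regulators, 3 were lower in DGCR8 KO and none higher, and in DDX6 KO 1 was lower and 1 higher. Over all tested genes 16.5% were lower and 19.9% higher in DGCR8 KO, and 16.6% and 17.9% in DDX6 KO. The 3 of 17 lower in DGCR8 KO lie near that share, and the list was not tested as a set. The 3 were Tfam (-0.56, adjusted p = 0.00657), which packages mitochondrial DNA and starts its transcription, Ssbp1 (-0.53, adjusted p = 0.0331), the single-strand binding protein, and Slirp (-0.69, adjusted p = 0.000976), a partner of Lrpprc. In DDX6 KO Lrpprc, which stabilizes mitochondrial mRNAs, was lower (-0.68, adjusted p = 0.000354) and Esrra higher (0.66, adjusted p = 0.0224). Nrf1, Gabpa and Yy1 passed no test against WT. Of 7 electron carriers and associated genes, 1 was lower in DGCR8 KO, and in DDX6 KO 2 were lower and 1 higher, beside the same all-gene shares. Cyct, the testis cytochrome c, was lower in DGCR8 KO (-1.25, adjusted p = 0.011). In DDX6 KO Atpif1, the inhibitor of ATP synthase, and Etfb were lower (-0.57, adjusted p = 0.000154 and -0.56, adjusted p = 0.00789), and Etfa was higher (0.60, adjusted p = 0.032).

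No member passed the test between the DDX6 KO clones: of 77 tested members 0 passed in clone 2 against clone 1 (limma), and 0 had an unadjusted p under 0.05, against 2.43% of all tested genes, with 2 libraries in each clone. By edgeR and DESeq2 the counts were also 0 and 0. Over all genes 5 passed, which is 0.0428%, and Ddx6 itself had a log2 difference of -2.18. The largest member difference between clones was 0.43 in size.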

How the data were processed

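The 10 QuantSeq 3′ FWD libraries were sequenced with single-end reads. The authors trimmed reads with cutadapt 1.14, aligned them with STAR 2.5.3a, kept unique alignments and counted them on the sense strand with featureCounts 1.5.3 and a Gencode vM14 annotation of mm10, as the file header and the study's methods state. The deposited values are raw counts per gene, with 92 spike-in rows left out here. Symbols and coordinates came from GENCODE vM21 (GRCm38) and matched 51274 of 51467 IDs. From these counts, CPM were computed on TMM-scaled totals. Tests used limma 3.58.1, the tool and CPM filter of the study's methods, here with voom weights in 1 model over all libraries (edgeR 4.0.16 for TMM, R 4.3.3), two-sided, on genes reaching 3 CPM in 3 or more libraries. The code was tested on simulated data.

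Named members were, in each complex and knockout, the 2 largest increases and decreases that passed with at least 10 CPM and no overlap of libraries, members beyond a log2 value of 1, isoform sets and the most abundant member. Members and lists were chosen with earlier results of these data known. Same-numbered WT and DGCR8 KO libraries, numbered in their titles, deviated together (r = 0.118 to 0.244 in 3 pairs). The labels do not state a pairing, and the number was also tried as a block. Over all 11 same-numbered pairs r was as low as -0.068. Replicates differed by more than counting noise. Alternatives changed the scaling, test (edgeR, DESeq2 1.42.0, limma-trend), filter, libraries, chromosome centring and block. Read depth limits values near 3 CPM. The values of 1 member are not reported here. Spike-in shares of 1.10 to 2.36% were not used for scaling.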

Additional observations from a re-analysis of the deposited data

Results flagged for a closer look

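Within the 4 DDX6 KO libraries, 41 sets of values (named members, Dgcr8, Ddx6 and summed levels) were checked for a library far from the others, and 2 were marked, where chance marks about 1 in 20. Ndufb8 read 480.6 CPM in the second clone 1 library, against 402.6 to 405.3 CPM in the other DDX6 KO libraries. Atp5c1 read 208.9 CPM in the first clone 2 library, against 232.5 to 233.2 CPM in the others.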

How the results depend on the processing

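Over all settings, 2030 values of named members and targeted genes were recomputed: 1832 kept direction and side of the threshold, 148 lost a call, 40 gained one and 10 changed sign. Of 63 called values with libraries left out in turn, 41 kept their call in every fit. The 10 sign changes came with centring by chromosome, chosen partly after seeing the data: centred on values and then on deviations, Cox4i1 in DGCR8 KO was 0.032 and 0.091, and in DDX6 KO Ndufa4 was -0.22 and -0.089, Ndufa9 -0.38 and -0.25 and Ndufb2 -0.27 and -0.14, while Ndufa4 between knockouts was 0.16 and 0.20. Centring on values also moved the member medians to -0.31 (DGCR8 KO) and -0.35 (DDX6 KO), and the medians of all genes to -0.12 and -0.079.

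With total counts the DDX6 KO median was -0.14 and the median between knockouts -0.070, and summed levels relative to WT in DDX6 KO were 0.944, 0.95, 0.882, 0.847 and 0.847 for complexes I to V and 0.697 for mitochondrially encoded genes. Without a filter the DGCR8 KO median was -0.21. With DESeq2 size factors complex IV in DGCR8 KO was 0.888. With clone 1 alone 20 members passed in DDX6 KO, and with clone 2 alone 18, and 21 between knockouts. Leaving out 1 library gave 16 to 31 members in DGCR8 KO, 19 to 32 in DDX6 KO and 25 to 38 between knockouts, and 0.890 to 0.908 for complex IV in DGCR8 KO.

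With the replicate block, 34 members passed in DGCR8 KO (36 with WT and DGCR8 KO libraries alone), 28 in DDX6 KO and 33 between knockouts. Beyond the DGCR8 KO calls of Ndufb8, Sdhd and Atp5g1, it changed no named call of DGCR8 KO against WT. In DDX6 KO against WT the block ended the calls of Uqcrh, Uqcrq, Cox6b1 and Atp5g3 (limma, adjusted p = 0.059 to 0.0774) and gave Cox5a one (0.032). Between knockouts it ended that of Ndufa4 (0.0576) and gave Atp5g3 one (0.0468). Whether DDX6 KO libraries are paired with WT is not known. Same-numbered deviations correlated at r = 0.1115 and 0.1295 for WT replicate 1 with the first library of clones 1 and 2. For WT replicate 2 with the second libraries r was 0.0967 and -0.0353. The second clone 2 library had its highest r with WT replicate 3 (0.159), so the title number may place it in the wrong block. Single libraries decide many calls, and depth limits members near 3 CPM.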

Other observations

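Ndufb1-ps, which the annotation classes as a bidirectional promoter lncRNA and which the choice of protein-coding genes left out, was as abundant as many members, with means of 80.2 CPM in WT, 86.7 CPM in DGCR8 KO and 78.9 CPM in DDX6 KO. It entered no test of members.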
